A study of Mus musculus with 6 samples.

Results

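These are 39 genes of macrophages and monocytes, chosen by symbol from the 46095 genes counted in 6 mouse hearts: 3 STAT3cKO hearts, with a deletion of STAT3 restricted to cardiomyocytes, and 3 wild-type hearts. The series set out to find pathways that bear on heart function when the deletion is present. Genotype is all that the labels state, so age, litter, the Cre line and its promoter are unknown here, as is whether each library came from its own animal. P-values therefore measure the spread between these libraries, which may be technical. Replicate numbers are those of the titles, 1, 3 and 4 for wild type and 3, 6 and 91 for STAT3cKO, and wherever values of single hearts are given they follow that order.

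Macrophages live in the healthy heart among cardiomyocytes, vessels and fibroblasts. Resident macrophages clear debris and dying cells, depend on signals through the receptor Csf1r, and in mice are often recognised by Cd163, Lyve1, Folr2 and Timd4. Monocytes from the blood enter in injury, carry Ly6C and Ccr2, and can become macrophages. Most other members are general myeloid genes, shared by resident and recruited cells. STAT3 carries the signals of IL-6 family cytokines, and the deletion was made in cardiomyocytes, so the macrophages are not the labelled target.

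Of the 39 members, 35 had enough counts to be tested, and 17 of them were lower in STAT3cKO hearts, against 12.6% of all genes tested (edgeR's quasi-likelihood test, Benjamini-Hochberg adjusted p under 0.05 over 14484 genes). Higher calls numbered 0, against 13.2% of all genes, with Csf2ra and Fcer1g higher at an unadjusted p under 0.05. DESeq2 found 17 lower (12.0% of all genes) and 0 higher (12.5%), and limma-voom 18 lower (12.7%) and 0 higher (13.4%). The median log2 fold change (STAT3cKO minus wild type throughout) was -0.56 over the tested members and 0.00 over all genes tested. The STAT3cKO hearts lay entirely below the wild-type hearts for 19 of the 35, against 21.5% of all genes tested, and entirely above them for 1, Ms4a7, against 21.5%. Leaving out 1 heart, 10 members were lower without wild type replicate 1 (9.1% of all genes), 15 without replicate 3 (8.8%) and 14 without replicate 4 (8.09%). The number was 12 without STAT3cKO replicate 3 (8.51%), 17 without replicate 6 (13.5%) and 16 without replicate 91 (9.69%). Without STAT3cKO replicate 6, 3 members were higher (12.7%), namely Fcer1g, Tlr4 and Csf2ra, and 0 were in the other 5 such fits, in which 10.2%, 8.7%, 8.35%, 9.11% and 10.4% of all genes were. With library size as the only scaling 19 members were lower (18.7%), with a 2-fold minimum 6 (2.57%), and with no filter on low counts 2 were higher (8.12%). In whole-heart RNA, fewer macrophages and less RNA per macrophage cannot be told apart.

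The 250 bases before a RefSeq start (GRCm38.p6) are shown for 3 of the resident-type genes and for the scavenger receptor Mrc1. This sets genes with large and small differences side by side. For Cd163 and Timd4 the window ends a few bases inside the gene span given below, and the reason was not tested. Lyve1 has no entry in the sequence table. Capitals mark AGGAAGT or its reverse complement ACTTCCT, a core bound by ETS-type factors such as PU.1, the macrophage regulator encoded by Spi1.
Cd163, chr6:124304401-124304650, plus strand: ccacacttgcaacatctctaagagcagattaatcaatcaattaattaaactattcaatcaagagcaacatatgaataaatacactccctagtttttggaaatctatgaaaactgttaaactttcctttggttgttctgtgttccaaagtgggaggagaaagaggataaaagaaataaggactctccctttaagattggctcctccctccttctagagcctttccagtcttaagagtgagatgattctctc
Timd4, chr11:46810549-46810798, plus strand: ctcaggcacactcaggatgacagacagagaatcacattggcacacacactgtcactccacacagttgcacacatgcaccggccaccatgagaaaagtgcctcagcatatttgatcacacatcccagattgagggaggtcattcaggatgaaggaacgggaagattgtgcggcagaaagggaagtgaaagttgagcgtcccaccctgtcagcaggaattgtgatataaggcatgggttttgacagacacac
Folr2, chr7:101857191-101857440, minus strand: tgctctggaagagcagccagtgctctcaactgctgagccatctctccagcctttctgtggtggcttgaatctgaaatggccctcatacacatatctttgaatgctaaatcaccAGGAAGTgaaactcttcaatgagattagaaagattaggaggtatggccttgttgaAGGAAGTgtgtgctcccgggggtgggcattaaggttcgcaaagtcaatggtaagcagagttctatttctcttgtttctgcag
Mrc1, chr2:14229164-14229413, plus strand: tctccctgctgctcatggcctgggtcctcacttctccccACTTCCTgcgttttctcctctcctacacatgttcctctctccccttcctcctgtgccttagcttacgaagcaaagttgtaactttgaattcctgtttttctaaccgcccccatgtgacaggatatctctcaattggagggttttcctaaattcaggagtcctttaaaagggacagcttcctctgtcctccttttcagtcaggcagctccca

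AGGAAGT begins 137 and 82 bases before the start of Folr2, and ACTTCCT 211 bases before that of Mrc1. The Cd163 and Timd4 windows contain neither run of letters, and other forms of ETS-type site were not searched. Folr2 has a second start, whose window contains neither run. Windows were found for 26 members, and 10 of these genes had AGGAAGT on either strand, as did 8.80% of all genes with a window. Counted by window, 37.5% of 32 member windows had it, against 7.69% of all 32851. By call, it was present in 4 of the 12 members with a window that fell (F13a1, Mrc1, Ptprc and Retnla) and in 5 of the 11 that were tested and did not pass (C5ar1, Fcgr1, Folr2, Ly6c2 and Lyz2). The letters TTCNNNGAA, the form of a STAT site, were found before 1 member, Fcgr1, on either strand, and in 8.13% of all genes with a window. A match is a run of letters, not a measured binding site.

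The resident-type genes did not move alike. Cd163, Timd4 and Lyve1 fell, Cd163 by the most, and Folr2 did not pass. In RefSeq (GRCm38.p6) Cd163 spans chr6:124304636-124330529, Lyve1 chr7:110850607-110862953, Folr2 chr7:101839988-101857190 and Timd4 chr11:46810786-46844333. Cd163, the receptor that takes up haemoglobin bound to haptoglobin, stood at 38.6, 37.9 and 32.3 CPM (TMM-normalised counts scaled to library size) in the wild-type hearts and at 8.32, 12.9 and 12.8 CPM in the STAT3cKO hearts. All 3 STAT3cKO hearts were far below the lowest wild-type heart. Its log2 fold change was -1.68 ± 0.16 (SE; adjusted p = 6.03e-05), which is 31.3% of the wild-type level, and it passed in each of the 6 fits that left out 1 heart.

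Lyve1, a hyaluronan receptor, was at 29.2, 28.2 and 23.9 CPM in wild type and 13.6, 23.0 and 14.5 CPM in STAT3cKO. STAT3cKO replicate 6 came close to wild type replicate 4, although the groups did not overlap. The log2 fold change was -0.67 ± 0.19 (SE; adjusted p = 0.0253), and 4 of the 6 fits that left out 1 heart did not pass, those without wild type replicate 1 (adjusted p = 0.0842) or 3 (0.0742), or else STAT3cKO replicate 3 (0.0769) or 91 (0.0817). Lymphatic endothelium also makes Lyve1. Of 6 lymphatic markers 4 were tested and 1 fell, against 12.6% of all genes tested. It was the VEGF receptor Flt4 (log2 fold change -0.51, adjusted p = 0.00606), which did not pass with an offset for transcript length and GC content (-0.26, 0.106). Pdpn and Ccl21a were almost without counts. The summed level of the 6 was 118 to 150 CPM in wild type and 110 to 124 CPM in STAT3cKO. It was mostly Prox1, at 80.4 ± 8.72 and 72.6 ± 7.08 CPM (SD, n = 3 each). Which cells made the Prox1 reads is not known in whole-heart RNA, so the sum is no measure of lymphatic content. The part of these 6 genes in the Lyve1 difference was not tested.

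Timd4, a phosphatidylserine receptor that binds dying cells and marks long-lived resident macrophages, had few reads. Its wild-type counts were 73, 30 and 76, those of STAT3cKO 18, 32 and 26. The groups overlapped, since wild type replicate 3 (1.79 CPM) lay below STAT3cKO replicate 6 (2.08 CPM). Its log2 fold change of -1.04 ± 0.35 (SE; adjusted p = 0.0438) did not pass in 4 of the 6 fits that left out 1 heart, those lacking wild type replicate 1 (adjusted p = 0.134) or 4 (0.166) or STAT3cKO replicate 3 (0.135) or 91 (0.109). Timd4 also did not pass in limma-voom (-0.99, adjusted p = 0.0797), which left 2 of the 4 resident-type genes lower (12.7% of all genes). Its counts were too low for the stricter filter.

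Folr2, the folate receptor of tissue macrophages, was at 21.5, 15.1 and 16.5 CPM in wild type and 13.5, 18.05 and 16.8 CPM in STAT3cKO. The groups were interleaved. Its log2 fold change was -0.13 ± 0.15 (SE; adjusted p = 0.548). Of the resident-type genes 3 of 4 were lower, against 12.6% of all genes tested. Without wild type replicate 1, STAT3cKO replicate 3 or STAT3cKO replicate 91, 1 of 4 was lower, against 9.1%, 8.51% and 9.69% of all genes.

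**Figure D1:**
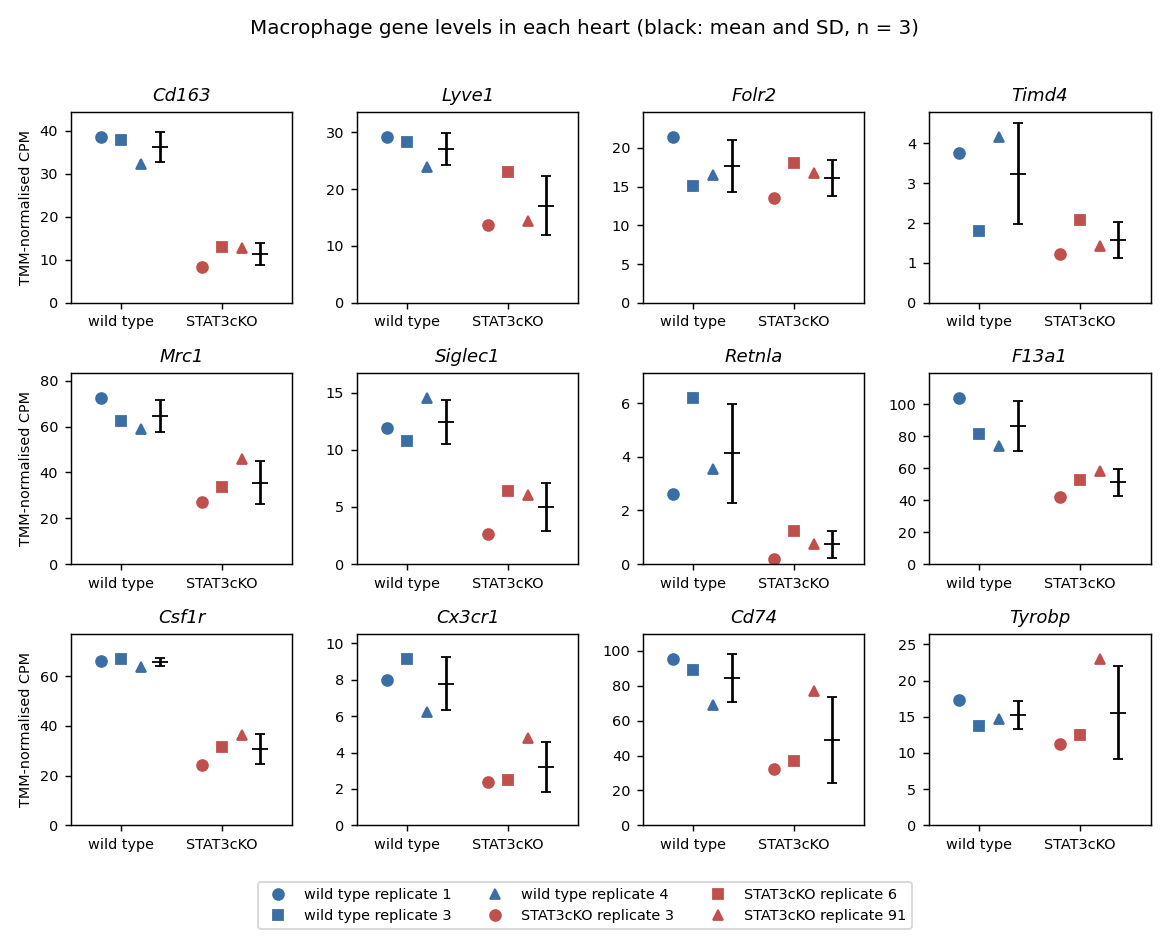
Levels of 12 members in each heart as TMM-normalised CPM, with 1 point per heart (wild type blue, STAT3cKO red, a symbol per replicate) and the mean with SD of 3 hearts in black. The groups are far apart for Cd163 and Csf1r and interleaved for Folr2 and Tyrobp, and STAT3cKO replicate 91 stands near wild type for Cd74.

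Set beside them, 14 of the 31 general myeloid members that were tested fell, against 12.6% of all genes tested, and 17 did not pass. Without wild type replicate 1, 9 fell, against 9.1% of all genes. The median log2 fold change was -0.52 over these 31 and -0.86 over the 4 resident-type genes. The ranges overlapped, from -2.46 to 0.51 for general members and from -1.68 to -0.13 for resident-type genes.

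The distance of each resident-type gene from the average general member, as log2 CPM minus the mean log2 CPM of the 31, sets them side by side within each heart. For Cd163 it was 1.34, 1.496 and 1.44 in wild type and 0.07, 0.47 and 0.06 in STAT3cKO hearts. Folr2 had distances of 0.50, 0.17 and 0.46 in wild-type and 0.77, 0.96 and 0.45 in STAT3cKO hearts. The group means of Cd163 differed by -1.23, and its groups did not overlap. Lyve1 stood at 0.94, 1.07 and 0.9996 in wild type and at 0.78, 1.32 and 0.24 in STAT3cKO, where replicate 6 was above every wild-type heart. Timd4 stood at -2.02, -2.91 and -1.52 against -2.69, -2.16 and -3.11, and its groups overlapped, as did those of Folr2. Under the offset for transcript length and GC content, the log2 fold change of Folr2 was -0.36 beside a median of -0.45 over the general members. These distances are a description, with no test. The ratio of Cd163 to Folr2 reads, in CPM, was 1.80, 2.51 and 1.96 in wild type and 0.616, 0.712 and 0.761 in STAT3cKO. Against Csf1r, the ratio of Cd163 was 0.583, 0.567 and 0.506 in wild type and 0.341, 0.408 and 0.351 in STAT3cKO. Neither ratio overlapped between the groups, and both were chosen after the values were seen.

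Scavenger receptors and genes of tissue repair fell in 6 of the 7 tested, against 12.6% of all genes tested. Retnla, a secreted protein of alternatively activated macrophages, gave 51, 104 and 65 counts in wild type, while STAT3cKO hearts gave 3, 19 and 14, or 2.63, 6.20 and 3.57 against 0.205, 1.23 and 0.766 CPM. Every wild-type heart was above every STAT3cKO heart, at low levels in both groups. The log2 fold change was -2.46 ± 0.49 (SE; adjusted p = 0.00569).

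Mrc1, the mannose receptor, was at 72.5, 62.5 and 58.7 CPM in wild type and 27.2, 33.6 and 45.9 CPM in STAT3cKO. Its log2 fold change was -0.86 ± 0.17 (SE; adjusted p = 0.0075). Siglec1, a sialic acid receptor, was at 11.9, 10.8 and 14.5 CPM against 2.59, 6.36 and 6.02 CPM. STAT3cKO replicate 3 was lowest for both genes, and neither gene overlapped between groups. The log2 fold change of Siglec1 was -1.30 ± 0.28 (SE; adjusted p = 0.00856).

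F13a1, the clotting factor XIII A chain made by macrophages, was at 104, 81.3 and 73.8 CPM in wild type and 42.0, 52.6 and 58.4 CPM in STAT3cKO (log2 fold change -0.76 ± 0.15, adjusted p = 0.00505). Stab1, a scavenger receptor that endothelium shares, fell less, from 108 ± 16.3 to 78.8 ± 4.10 CPM (SD, n = 3 each; log2 fold change -0.46, adjusted p = 0.00876). It missed the threshold under the length and GC offset (-0.15, 0.341), and it overlaps the protein-coding gene Nt5dc2, so its count is uncertain. Mertk, the receptor through which macrophages engulf dying cells, fell from 13.4 ± 0.219 to 9.59 ± 1.37 CPM (SD, n = 3 each; log2 fold change -0.49, adjusted p = 0.0212). Mertk passed in 1 of the 6 fits that left out 1 heart, and did not when the heart was wild type replicate 1 (adjusted p = 0.0522), 3 (0.0635) or 4 (0.0669) or STAT3cKO replicate 3 (0.0811) or 91 (0.0735). Maf, a transcription factor of macrophages that other heart cells also express, was at 13.8 ± 1.96 and 12.2 ± 2.78 CPM and did not pass (adjusted p = 0.511). Clec10a, a lectin, and Pf4, a chemokine of platelets and macrophages, were not tested. Clec10a had at most 6 counts in a heart, and Pf4 had 27 in wild type replicate 4 and at most 5 in the others.

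Among genes of macrophage identity, 4 of 9 tested fell, against 12.6% of all genes tested. Csf1r, the receptor for the growth factors CSF1 and IL-34, held almost the same level in all wild-type hearts, 66.3, 66.9 and 63.8 CPM, and was at 24.4, 31.5 and 36.4 CPM in STAT3cKO. All STAT3cKO hearts were well below them, with a log2 fold change of -1.09 ± 0.13 (SE; adjusted p = 0.000207). Mpeg1, a pore-forming protein of phagocytes, was as even in wild type, at 24.3, 23.7 and 24.5 CPM, and ranged from 8.94 to 18.1 CPM in STAT3cKO (log2 fold change -0.90 ± 0.21, adjusted p = 0.0149). It did not pass when wild type replicate 4 (adjusted p = 0.0549), or else STAT3cKO replicate 6 (0.0696) was left out.

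Adgre1, which encodes the macrophage antigen F4/80, fell from 21.6 ± 2.59 to 13.4 ± 3.34 CPM (SD, n = 3 each; log2 fold change -0.68, adjusted p = 0.0139), a call that needed wild type replicate 1 (0.0587 on leaving it out). Ptprc, which encodes CD45 of all white blood cells, fell from 15.1 ± 0.806 to 9.81 ± 2.10 CPM (log2 fold change -0.62, adjusted p = 0.0117), and missed the threshold under the length and GC offset (-0.45, 0.0574). Spi1, which encodes PU.1, did not overlap between groups, with STAT3cKO lower, yet did not pass (log2 fold change -0.56 ± 0.23, adjusted p = 0.0896).

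The lysosomal glycoprotein gene Cd68 and the lysozyme gene Lyz2 did not pass. Cd68 was at 13.8, 9.96 and 11.5 CPM in wild type and 9.28, 12.2 and 10.8 CPM in STAT3cKO (log2 fold change -0.13 ± 0.16, adjusted p = 0.582). Lyz2 was at 270, 234 and 195 CPM against 211, 179 and 286 CPM (log2 fold change -0.04 ± 0.18, adjusted p = 0.876). Both genes overlapped between groups, and STAT3cKO replicate 91 was the highest of all 6 hearts for Lyz2. Lyz2 has a close copy, Lyz1, so its reads are uncertain.

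Positive values came from Csf2ra, a receptor chain for GM-CSF (log2 fold change 0.37 ± 0.15, adjusted p = 0.0916), and from Ms4a7, a membrane protein of mature macrophages (0.50 ± 0.24, adjusted p = 0.135), neither of which passed. Aif1, which encodes the macrophage protein IBA1, is listed at 0 counts in every heart, as is Lst1 of the other macrophage genes described further on. Counting error alone would allow up to 3 counts or 0.154 to 0.204 CPM per heart, and whether these zeros measure expression is not known. Laptm5, a lysosomal protein of blood cells, gave 9, 9 and 18 counts in wild type, while STAT3cKO hearts gave 3, 1 and 8. How the authors' counting treated these genes was not tested.

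**Figure D2:**
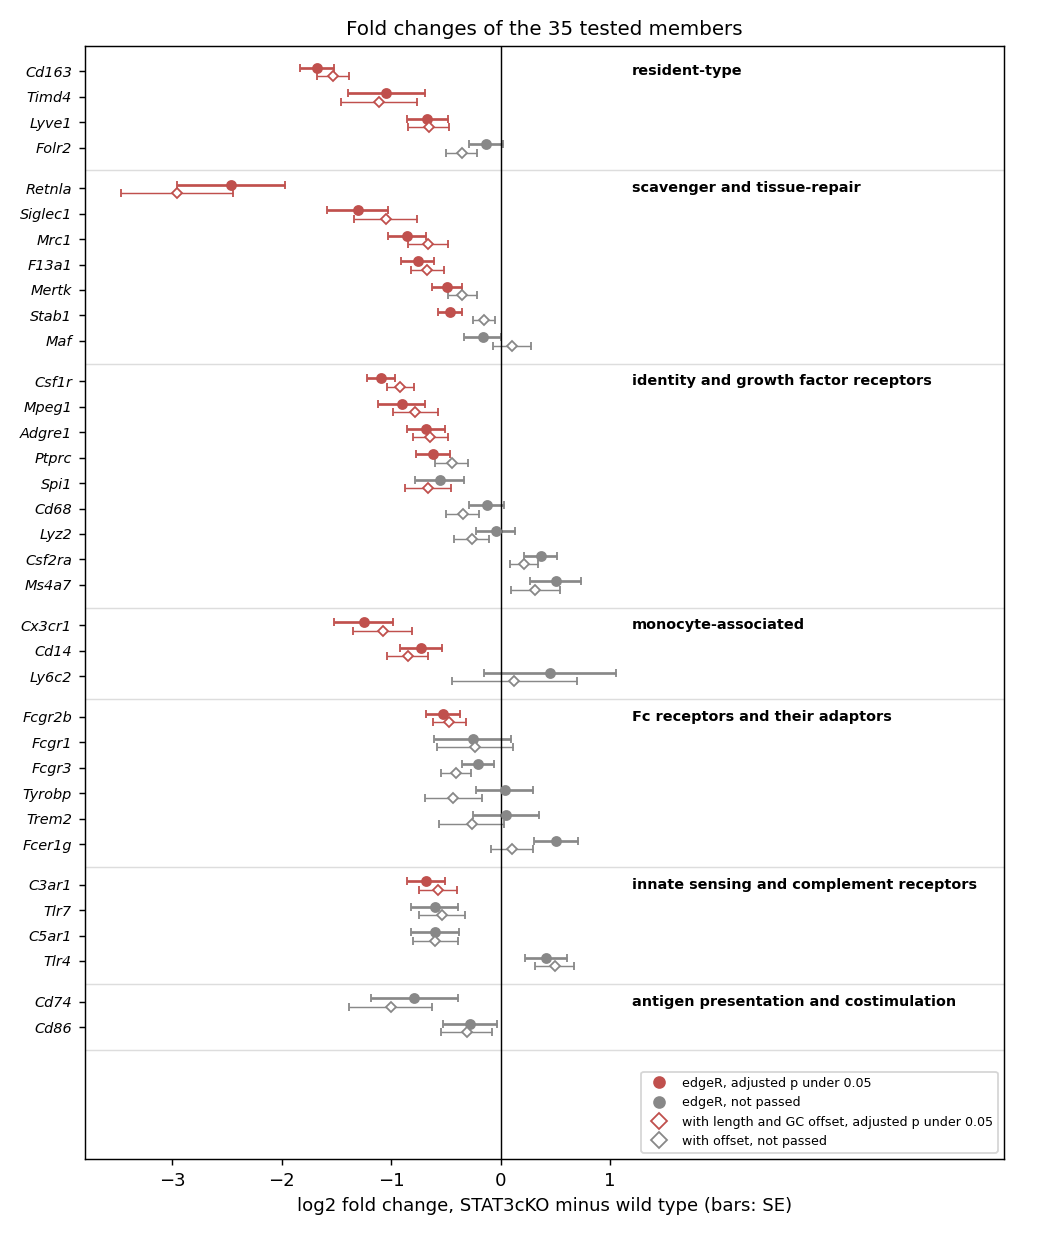
Log2 fold changes of the 35 tested members by role, with SE bars, from edgeR (filled) and from edgeR with an offset for transcript length and GC content (open); red marks an adjusted p under 0.05. Resident-type, scavenger and identity genes lie mostly left of 0, and Folr2, Lyz2, Tyrobp and Trem2 lie near it.

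Of the monocyte-associated genes 2 of 3 fell, against 12.6% of all genes tested. Cx3cr1, the fractalkine receptor of patrolling monocytes and macrophages, was at 7.98, 9.13 and 6.25 CPM in wild type and 2.39, 2.47 and 4.82 CPM in STAT3cKO (log2 fold change -1.25 ± 0.27, adjusted p = 0.0064). Cd14, the co-receptor for lipopolysaccharide, fell from 8.86 ± 1.09 to 5.33 ± 1.10 CPM (SD, n = 3 each; log2 fold change -0.73, adjusted p = 0.0146), a call that ended on leaving out wild type replicate 1 (0.0637) or STAT3cKO replicate 3 (0.0562). Ly6c2, the marker of recruited monocytes, gave 30, 13 and 3 counts in wild type, while STAT3cKO hearts gave 18, 10 and 28. These counts spread too widely for a direction (log2 fold change 0.45 ± 0.60, adjusted p = 0.614), and the near-identical Ly6c1 may share its reads. Ccr2, which is no member, fell from 6.20 ± 0.909 to 3.43 ± 1.11 CPM (log2 fold change -0.84, adjusted p = 0.0233). It passed in 2 of the 6 fits that left out 1 heart, and did not pass under the length and GC offset (-0.64, 0.0907).

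Fc receptors bind antibody-coated targets. Fcer1g is a short adaptor protein that carries the signal of the activating ones, and the short adaptor Tyrobp carries that of Trem2. Of these 6 genes 1 fell, near the 12.6% of all genes tested. It was Fcgr2b, the inhibitory receptor, which fell from 14.8 ± 2.505 to 10.3 ± 1.30 CPM (SD, n = 3 each; log2 fold change -0.52, adjusted p = 0.0252). It did not pass on leaving out wild type replicate 1 (adjusted p = 0.119), or else STAT3cKO replicate 3 (0.0977). Fcgr3, an activating receptor similar in sequence to Fcgr2b, was at 20.7 ± 2.76 and 17.9 ± 3.63 CPM (adjusted p = 0.338), and Fcgr1, the high-affinity receptor, at 4.39 ± 1.501 and 3.65 ± 1.79 CPM (adjusted p = 0.624).

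Tyrobp was at 17.3, 13.7 and 14.7 CPM in wild type and 11.2, 12.5 and 22.9 CPM in STAT3cKO. The STAT3cKO hearts lay on both sides of the wild-type range, 2 below it and replicate 91 above it (log2 fold change 0.04 ± 0.26, adjusted p = 0.931). Fcer1g was at 9.01, 10.3 and 6.75 CPM against 11.7, 9.54 and 15.7 CPM (log2 fold change 0.51 ± 0.20, adjusted p = 0.0872). Fcer1g was higher without STAT3cKO replicate 6 (log2 fold change 0.66, adjusted p = 0.0257). Trem2, a lipid receptor, was low in every heart, at 2.44 ± 0.369 and 2.52 ± 0.912 CPM (adjusted p = 0.916).

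Of the innate sensors and complement receptors, 1 of 4 fell, against 12.6% of all genes tested, a list too short to set apart from that share. It was C3ar1, the receptor for C3a, from 12.8 ± 1.88 to 7.92 ± 1.61 CPM (SD, n = 3 each, log2 fold change -0.68, adjusted p = 0.0125). The call ended on leaving out wild type replicate 1 (0.0605). C5ar1, the receptor for C5a, and Tlr7, a sensor of single-stranded RNA, were below wild type in every STAT3cKO heart with a log2 fold change of -0.60 each, and did not pass (adjusted p = 0.058 and 0.0519). Tlr7 passed in limma-voom (0.0451), and both passed with library size alone (0.0405 and 0.0297) and with no filter on low counts (0.0449 and 0.0338). Tlr4, the lipopolysaccharide receptor, which cardiomyocytes and endothelium also express, stood at 23.9, 27.1 and 27.4 CPM in wild type and 34.9, 24.4 and 44.8 CPM in STAT3cKO. Only STAT3cKO replicate 6 was within the wild-type range, and Tlr4 did not pass (log2 fold change 0.41 ± 0.19, adjusted p = 0.146) unless that heart was left out (0.61, adjusted p = 0.0038).

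Cd74, the invariant chain of MHC class II, was at 95.2, 89.0 and 69.1 CPM in wild type and 32.1, 37.0 and 77.2 CPM in STAT3cKO. STAT3cKO replicates 3 and 6 were at less than any wild-type heart, and replicate 91 lay inside the wild-type range, and Cd74 did not pass (log2 fold change -0.79 ± 0.40, adjusted p = 0.221) in edgeR, though it did in limma-voom (-0.88, 0.0312). Cd86, a costimulatory ligand for T cells, was at 4.67 ± 0.634 and 3.82 ± 1.19 CPM (adjusted p = 0.428).

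Single hearts stood out across the members. STAT3cKO replicate 91 was the highest of its group for 25 of the 35 tested members, against 33.5% of all genes tested, and STAT3cKO replicate 3 was the lowest for 24, against 31.1%. Wild type replicate 1 was the highest of its group for 24, against 35.1%. Replicate 91 had more Lyz2, Tyrobp, Fcer1g and Tlr4 than any other of the 6 hearts, while its Cd163 level was 12.8 CPM beside 12.9 CPM in replicate 6. The sum over all 39 members was 894 to 1125 CPM in wild type and 645 to 899 CPM in STAT3cKO, with replicate 91 the highest of its group, while the sum of the 4 resident-type genes was 76.8 to 93.1 CPM and 36.7 to 56.02 CPM.

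**Figure D3:**
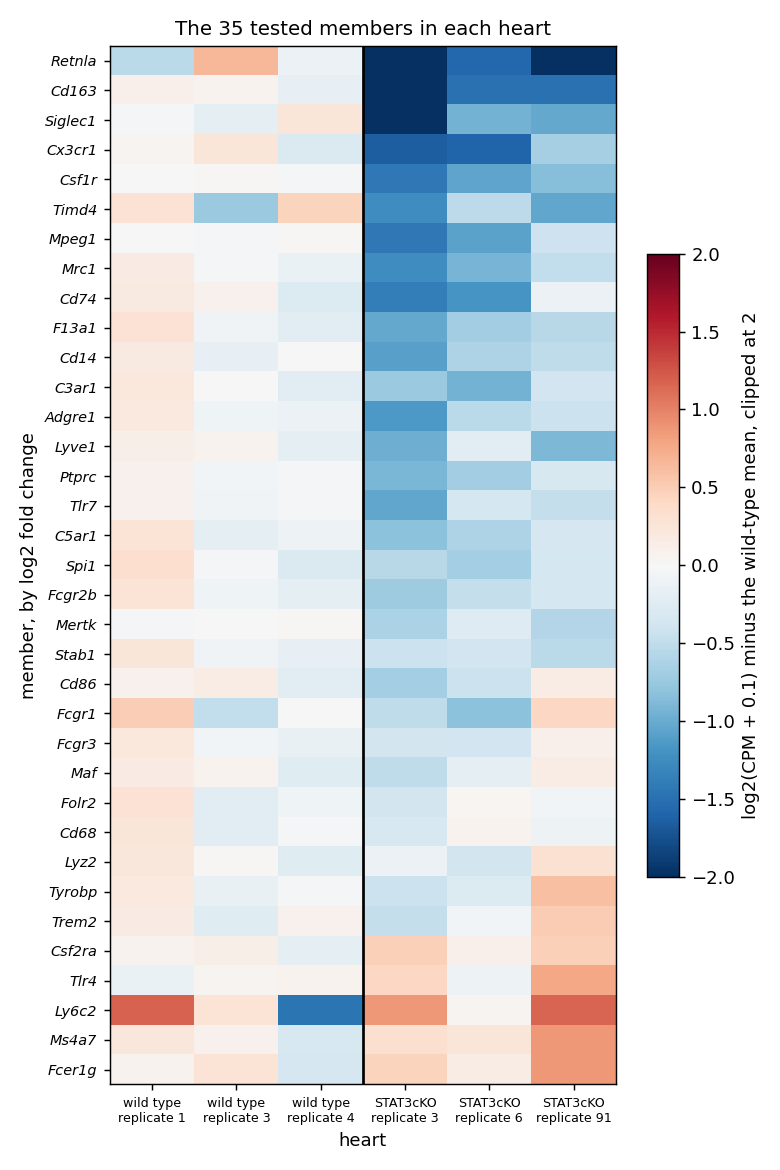
Each tested member in each heart, as log2(CPM + 0.1) minus the wild-type mean, clipped at 2 in either direction; rows run from the lowest to the highest log2 fold change. Retnla, Cd163 and Siglec1 are blue in all 3 STAT3cKO hearts, and replicate 91 is palest or red for many of the rows below.

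Level per length, in CPM per kb of the longest coding transcript, spans a wide range among the members. In wild type Lyz2 led with 177 ± 28.6, followed by Cd74 with 59.9 ± 9.70, Tyrobp with 25.5 ± 3.18 and F13a1 with 21.8 ± 3.96 CPM per kb (SD, n = 3), the last pair within their spread. Folr2 (14.7 ± 2.79), Csf1r (14.0 ± 0.346) and Stab1 (13.6 ± 2.04) were indistinguishable by their spread. Lyve1 (9.37 ± 0.987) and Cd163 (8.17 ± 0.779) were close to each other in wild type, and at 5.89 ± 1.80 and 2.55 ± 0.582 CPM per kb in STAT3cKO. Timd4 was near the bottom with 1.49 ± 0.585.

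Transcript length moved with the calls. In these libraries short transcripts tend to be higher and long ones lower in STAT3cKO, over all genes. Split at the median length of the tested members, 2589 nt, 14 of the 18 longer members fell, against 19.2% of all genes that long, and 3 of the 17 shorter ones (Retnla, Cd14 and Timd4), against 3.7% of all genes that short. The median log2 fold change was -0.68 for the longer members and -0.13 for the shorter, and -0.13 and 0.20 for all genes of those lengths. The adaptor genes Tyrobp (597 nt) and Fcer1g (683 nt) are among the shortest, and Cd163 (4443 nt) and Csf1r (4701 nt) are long, while Retnla (599 nt) is as short as the adaptors and fell furthest.

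With an offset that removes the trend on length and GC content from each heart, 15 members fell, against 7.47% of all genes tested, and the median log2 fold change of the 35 was -0.47. Of these, 11 were among the 18 longer members (7.81% of all such genes) and 4 among the 17 shorter ones (6.75%). Cd163 kept a log2 fold change of -1.53 (adjusted p = 8.49e-05), Csf1r -0.92 (0.000638), Lyve1 -0.66 (0.0362), Timd4 -1.11 (0.0434) and Retnla -2.96 (0.00451). Folr2 moved to -0.36 and did not pass (adjusted p = 0.103). Stab1 (log2 fold change -0.15, adjusted p = 0.341), Mertk (-0.35, 0.0831) and Ptprc (-0.45, 0.0574) no longer passed, and Spi1 (-0.66, 0.0491) did.

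**Figure D4:**
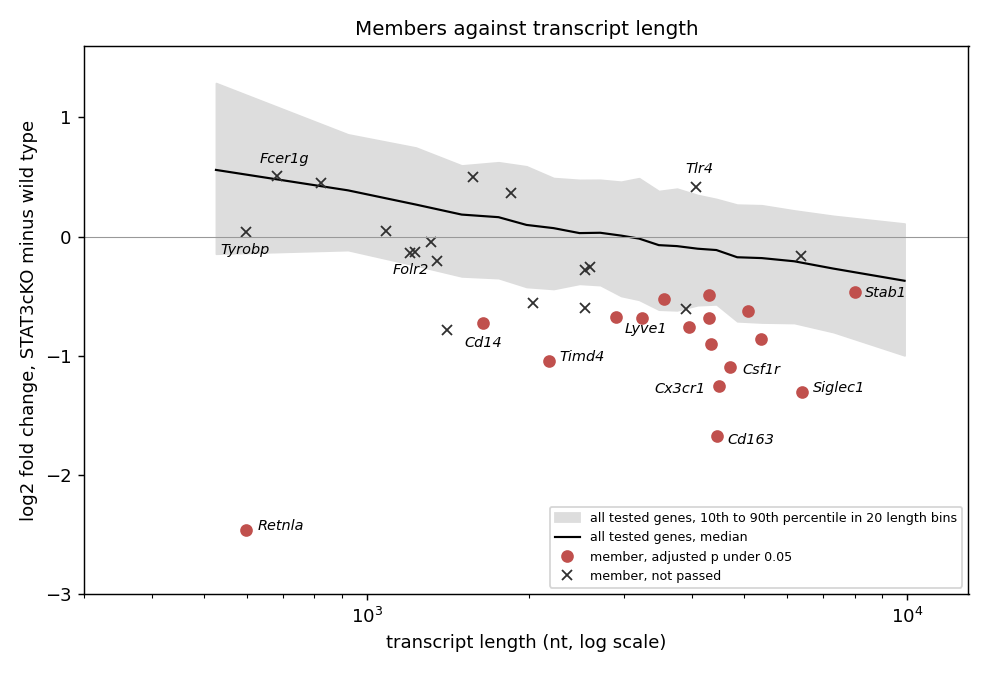
Log2 fold change of each tested member against transcript length (log axis), red where the adjusted p was under 0.05 and a cross where not; the line and grey band give the median and the 10th to 90th percentile of all tested genes in 20 length bins. Cd163, Retnla and Siglec1 lie far below the band, and Fcer1g and Stab1 lie inside it.

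Other macrophage genes, a list of 35 that are no members, gave 33 for the test. Of these, 12 fell, against 12.6% of all genes tested, and 1 rose, against 13.2%. The median log2 fold change was -0.36. Those with the smallest p were Ctsc, the protease cathepsin C (log2 fold change -0.82, adjusted p = 0.000176), Cybb, the catalytic subunit of the phagocyte NADPH oxidase (-1.63, 0.000292), the actin bundler Lcp1 (-0.75, 0.0014) and the sialic acid receptor Cd33 (-1.46, 0.00151). The 1 that rose was Cebpb, a stress-responsive transcription factor made by many cell types (0.49, 0.0203), which did not pass with library size as the only scaling (adjusted p = 0.0704) or under the offset (0.203). Cebpb also did not pass on leaving out wild type replicate 1 (0.0628) or 4 (0.0851), nor STAT3cKO replicate 6 (0.0527). Without wild type replicate 1, 7 of the list fell, against 9.1% of all genes. In the main fit 20 did not pass, among them C1qa, C1qb, C1qc and Apoe, with log2 fold changes of -0.20, -0.10, -0.19 and 0.09. Under the offset 13 fell (7.47% of all genes), including C1qa (-0.54, adjusted p = 0.0228) and C1qc (-0.46, 0.0297).

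Of 17 ligands of macrophage receptors 12 were tested and 2 fell, close to the 12.6% of all genes tested. Under the offset 1 fell, against 7.47% of all genes. Csf1, the main ligand of Csf1r, went from 46.2 ± 2.10 to 36.9 ± 2.21 CPM (SD, n = 3 each, log2 fold change -0.32, adjusted p = 0.0234). Tgfb1 went from 20.9 ± 2.35 to 14.9 ± 1.13 CPM (-0.49, 0.0124). Csf1 did not pass under the offset (adjusted p = 0.154), nor on leaving out wild type replicate 3 (0.09) or 4 (0.051), nor STAT3cKO replicate 6 (0.0526), and Tgfb1 did not on leaving out wild type replicate 1 (0.0562). Leaving out 1 heart gave 1 to 3 of the list lower. The cytokine genes Csf2, Il4, Il13 and Il10 had at most 2 counts in a heart.

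Stat3 itself fell from 94.4 ± 7.46 to 58.7 ± 5.48 CPM (SD, n = 3 each; log2 fold change -0.68, adjusted p = 0.000677), below wild type in each STAT3cKO heart, and total counts per heart ran from 15416877 to 18264052. Marker lists of other cells were summed in the same way. Beside the calls given for each list, 12.6% of all genes tested fell and 13.2% rose. Under the offset 7.47% fell and 1505 of the 14484 genes rose. On leaving out 1 heart 8.09% to 13.5% fell and 8.35% to 12.7% rose. Summed CPM was 1243 to 1430 in wild type and 785 to 909 in STAT3cKO for 8 blood endothelial genes (7 fell, 6 under the offset). It was 42186 to 44743 and 50195 to 56846 for 8 cardiomyocyte genes (4 rose and 1 fell, 2 and 0 under the offset). For 5 red blood cell genes it was 90.7 to 159 and 334 to 685 (4 rose, 0 under the offset and 0 to 5 on leaving out 1 heart). The sums of 7 fibroblast genes overlapped between groups, at 1288 to 1878 and 1643 to 2171 CPM, and were mostly Dcn, which rose (log2 fold change 0.79, adjusted p = 0.00715), while 2 fell (1 under the offset). Of other immune cells, 6 mast cell genes summed to 12.0 to 14.3 and 5.58 to 7.47 CPM (4 fell, 2 to 4 on leaving out 1 heart and 1 under the stricter filter). The sums were 2.47 to 8.65 and 8.60 to 15.1 CPM for 9 neutrophil genes (S100a8 rose), and 2.74 to 6.14 and 5.65 to 10.02 CPM for 12 lymphocyte genes. Of the lymphocyte genes 3 were tested and Cd79b rose (log2 fold change 1.46, adjusted p = 0.0442). It passed in 1 of the 6 fits that left out 1 heart, and not under the offset (0.0854). Dendritic cell genes summed to 28.04 to 33.5 and 21.6 to 33.6 CPM. That sum follows Zbtb46, with a wild-type mean of 28.4 CPM beside 1.02 CPM for Itgax, the next highest, and says little of the rest. Platelet genes summed to 0.603 to 1.39 and 1.49 to 2.46 CPM, with Ppbp and Gp1bb at 0. The part of these other cells in the macrophage differences was not tested.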

How the data were processed

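Hearts were grouped by the genotype label. Per the labels' protocols, RNA was extracted with Trizol, and per the submitters' processing notes HISAT2 and GRCm38 were used; the counting program, annotation, strand setting and treatment of multi-mapping reads are not stated here. The authors deposited raw read counts per gene symbol, with no normalization. Genes sharing sequence or overlapping others are therefore uncertain, among members also Cd163, Folr2, F13a1, Csf1r, Cx3cr1, Laptm5 and Adgre1, which overlap non-coding models, and Mrc1, Fcgr3 and Cd74, which hold small RNA genes.

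Genes were filtered with filterByExpr (minimum count 10), scaled by TMM and compared by the robust quasi-likelihood test of edgeR 4.0.16 in R 4.3.3, with genotype as the only term and Benjamini-Hochberg adjustment over 14484 genes. "Fell", "rose", "lower" and "higher" as calls mean an adjusted p under 0.05. SE is the size of the log2 fold change over the square root of F. Transcript lengths came from GENCODE M21 (93.8% of tested genes), and the offset used splines with 5 degrees of freedom. The code of the tests was run on counts simulated from the means and dispersions that edgeR fitted to these data. Such counts hold no other source of spread, so that run is no evidence for the calls. Alternatives were DESeq2 1.42.0, limma-voom (limma 3.58.1), other scalings, no filter, a stricter one (1 CPM or more in 3 hearts, mean count 50 or more), and leaving out each heart. Every member is accounted for, with those that passed given by level and fold change. Of the other macrophage genes that fell, the 4 with the smallest adjusted p are named, as are the ligands and lymphatic markers that passed. The remaining lists are given by sums and counts of calls, and some further genes are given for comparison. Members, lists and rules were chosen with earlier results of these data known. Intervals implied by counts of 0 cover counting error only.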

Additional observations from a re-analysis of the deposited data

How the results depend on the processing

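No paired analysis was made because the labels state no pairing of hearts between the groups. Over all genes, 1820 fell and 1918 rose. The length and GC offset gave 1082 lower and 1505 higher, library size alone 2714 lower and 1109 higher, and a 2-fold minimum 372 lower and 342 higher; leaving out 1 heart gave 1198 to 1999 lower and 1237 to 1887 higher. Library size alone moved the median of all genes to -0.11 on the log2 scale. Of the members, 6 fell by at least 2-fold, 4 of them general. Leaving out 1 heart gave 10 to 17 members lower (1 to 3 resident-type, 9 to 15 general) and 0 to 3 higher. Without a low-count filter 2 members, Fcer1g and Tlr4, were higher. Of the other macrophage genes, 7 to 13 were lower and 0 to 1 higher on leaving out 1 heart, 4 were lower and 0 higher by at least 2-fold, and 0 were higher with the offset or library size alone. The direction turned for genes that did not pass. With the offset the log2 fold change was 0.10 for Maf, -0.43 for Tyrobp and -0.26 for Trem2, with library size alone -0.060 for Tyrobp and -0.051 for Trem2, and with limma-voom -0.013 for Tyrobp. Leaving out 1 heart gave -0.24 to 0.028 for Folr2, -0.23 to 0.0057 for Cd68, -0.24 to 0.10 for Lyz2, -0.033 to 1.29 for Ly6c2, -0.73 to 0.029 for Fcgr1, -0.35 to 0.22 for Tyrobp and -0.27 to 0.26 for Trem2. The cause was not tested, except that a 2-fold minimum is stricter by construction and leaving out a heart leaves fewer samples. Low counts limit Timd4, which had 18 to 76 counts in a heart.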
